A study of Arabidopsis thaliana with 6 samples.

Results

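SCL28 is a plant transcription factor of the GRAS family, and this account follows it together with 9 relatives from the same family in Arabidopsis thaliana root tips. The 10 genes were chosen by gene ID, as SCL28 (AT1G63100), HAM1 (AT2G45160), HAM2 (AT3G60630), HAM3 (AT4G00150), PAT1 (AT5G48150), SCL13 (AT4G17230), SCL5 (AT1G50600), SCL21 (AT2G04890), SCL8 (AT5G52510) and SCL14 (AT1G07530). They are 10 of the 21125 genes listed in the study. The rule that chose them uses gene IDs and no measured value, although it was written with earlier results of these data known. RNA sequencing covered 3 libraries from scl28-3 mutant plants and 3 from wild type plants, given as biological replicates. Plants of both genotypes were 6 days old and grew on sucrose-containing Murashige and Skoog agar under constant light at 21 °C, and each library came from about 300 root tips cut at about 2 mm. The labels name the mutant by its allele only, and the sources used here give neither the nature of the lesion nor the ecotype. The question put to the data was how abundant the transcript of each factor is in wild type root tips, and whether any relative rises where SCL28 falls.

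GRAS proteins share a C-terminal domain through which they bind other proteins, and many of them control transcription in partnership with a DNA-binding factor rather than alone. The root tip depends on several of them: SHORT-ROOT and SCARECROW pattern the ground tissue, the DELLA proteins restrain growth until gibberellin removes them, and the HAIRY MERISTEM (HAM) factors keep meristem cells undifferentiated. SCL28 is expressed in dividing cells, is controlled by MYB3R factors, and acts in the later part of the cell cycle together with an AP2-type partner, the Arabidopsis homologue of rice SMOS1.

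The GRAS domain is recognised by a short core of 5 residues, VHIID in its classical form, and the coding bases of that core show how far the 10 members have diverged where the family is best conserved. The following 33 bases of each gene were read from the coding sequence in TAIR10.1 (RefSeq annotation), 5′ to 3′ on the coding strand, at the place that aligned with the core of SCL28. Capitals mark the 5 codons of the core.
SCL28, chr1:23400189-23400221, minus strand: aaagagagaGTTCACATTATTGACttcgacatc
HAM1, chr2:18618863-18618895, minus strand: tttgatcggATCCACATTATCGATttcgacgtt
HAM2, chr3:22411264-22411296, minus strand: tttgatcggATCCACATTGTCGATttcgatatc
HAM3, chr4:58164-58196, minus strand: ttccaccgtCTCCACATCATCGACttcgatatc
PAT1, chr5:19523349-19523381, minus strand: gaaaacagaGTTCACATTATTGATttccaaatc
SCL13, chr4:9661998-9662030, minus strand: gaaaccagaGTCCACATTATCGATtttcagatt
SCL5, chr1:18738166-18738198, minus strand: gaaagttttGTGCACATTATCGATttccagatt
SCL21, chr2:1721322-1721354, minus strand: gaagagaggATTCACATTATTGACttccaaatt
SCL8, chr5:21308288-21308320, plus strand: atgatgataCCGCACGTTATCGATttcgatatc
SCL14, chr1:2314614-2314646, minus strand: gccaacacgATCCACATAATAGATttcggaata

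The core read VHIID exactly in 4 of the 10 members (SCL28, PAT1, SCL13 and SCL5), while its histidine and its final aspartate were present in 10 of 10. Over whole proteins translated from the annotated coding sequences, the members fell into near and distant relatives. HAM1 and HAM2 were identical at 65.7% of the shorter protein in a global alignment, and HAM3 matched HAM1 at 51.4%. PAT1 and SCL21 matched at 68.5%, SCL5 and SCL21 at 60.5%, and SCL13 and SCL21 at 53.0%. SCL28 (a protein of 658 residues), SCL8 and SCL14 had no near relative among the members. The closest member was SCL13 at 28.9% for SCL28, SCL21 at 33.2% for SCL8 and PAT1 at 32.4% for SCL14. For SCL28 the closest match in the GRAS family genes compared was SCL23 at 34.6%, followed by GAI at 32.1%. Identity is counted here over the shorter protein, which has 405 residues in SCL23 and 533 in GAI. The longest run of bases shared exactly by the transcripts of any 2 members was 38 bases, in HAM1 and HAM2.

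HAM1, HAM2 and HAM3 also carry the target site of miR171, a microRNA known to cut their transcripts, and this sequence separates them from the other members. The mature miR171a is shown first, with its seed (bases 2 to 8) in capitals. The site below it occurs letter for letter in the coding exon of all 3 HAM genes, on the minus strand in each, and its capitals mark the bases that pair with the seed.
miR171a (MIR171A, chr3:19073521-19073541, plus strand): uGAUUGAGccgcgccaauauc
site in HAM1 (chr2:18619128-18619148), HAM2 (chr3:22411544-22411564) and HAM3 (chr4:58411-58431): gatattggcgcggCTCAATCa
The site has 0 mismatches to miR171a in each of the 3 genes. The sequence of miR171b and miR171c, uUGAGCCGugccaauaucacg, had 3 mismatches at its own best place in each of the 3 transcripts, a search not restricted to the printed site. Among 34 GRAS transcripts scanned, the fewest mismatches outside HAM1, HAM2 and HAM3 was 6. The MIR171B locus AT1G11735 was at 0.14, 0 and 0.06 CPM in scl28-3 and at 0, 0.1 and 0.09 CPM in wild type, under the value of 3 reads in every library, and a row of this kind does not measure the mature microRNA.

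Read depth was 13996534 to 16780424 reads per library in scl28-3 and 10399899 to 11572901 in wild type, so that 3 reads corresponded to 0.179 to 0.214 CPM (reads scaled to the library total) in scl28-3 and 0.259 to 0.288 CPM in wild type. All 10 members passed the filter on low values and were well above this level, with 123 reads (SCL21, wild type library 2) as the lowest member count. The first principal component, with 44.3% of the variance, set wild type library 1 at -35.6 against -9.4 to 19.5 for the scl28-3 libraries and 3.4 and 17.3 for the other wild type libraries. That library was low in endodermis markers (7 genes of the Casparian strip and its regulation), whose sum was 245.78 to 374.41 CPM in scl28-3 libraries and 122.09, 235.47 and 314.58 CPM in wild type libraries 1, 2 and 3. The 6 root hair markers summed to 295.56 to 370.05 CPM in scl28-3 and 249.79 to 312.03 CPM in wild type. Log2 fold changes were above 0 in 7 of 7 endodermis and 6 of 6 root hair markers, against 52.1% of all tested genes. In limma 1 of each was higher at an unadjusted p under 0.05, against 2.2% of all tested genes, and 0 were called by limma, edgeR or DESeq2, and their part in the results below was not tested. Of the markers of the root tip, 6 of 6 for the meristem were detected. They summed to 209.2, 190.64 and 178.47 CPM in scl28-3 libraries 1, 2 and 3. In wild type libraries 1, 2 and 3 they summed to 219.3, 172.12 and 171.27 CPM, so wild type library 1 was the highest. For the root cap 4 of 4 were detected (40.08 to 59.32 CPM in scl28-3, 39.52 to 56.87 CPM in wild type). The 4 leaf genes, none at 0, summed to 11.58 to 20.38 CPM in scl28-3 and 11.4 to 19.42 CPM in wild type.

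As a check of the labels, SCL28, the gene that the scl28-3 allele is named for, fell in scl28-3. It was at 17.72, 14.92 and 13.65 CPM in the scl28-3 libraries, against 44.5, 42.59 and 42.38 CPM in the wild type libraries. The groups did not overlap, and even the highest mutant library was well below the lowest wild type one. Mutant libraries kept 35.8% of the wild type mean, 15.4 ± 2.08 against 43.2 ± 1.17 CPM (SD, n = 3 each). The log2 fold change was -1.48 ± 0.12 (SE; 95% interval -1.74 to -1.22) on the log2(CPM + 0.5) scale, with a limma adjusted p = 0.0022. It is 1 of 13 genes called lower, 0.0727% of the 17879 tested, at an adjusted p under 0.05. SCL28 was still read at 248, 212 and 229 reads in scl28-3, against 515, 443 and 483 reads in wild type. The counts cover the whole locus, and where in the transcript the remaining reads lie was not analysed here. In bulk tissue, fewer cells of a type and less RNA per cell cannot be told apart, which holds for every member below as well.

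**Figure D1:**
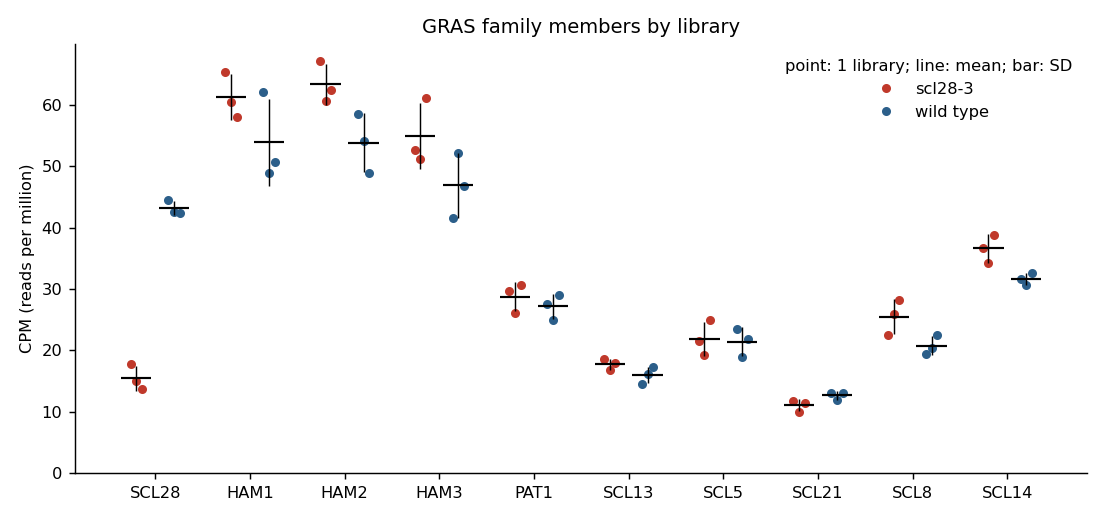
CPM of each of the 10 GRAS genes in every library, with scl28-3 (red) left of wild type (blue); points are libraries, horizontal lines are means and vertical bars are SD (n = 3 each). SCL28 is the only member whose groups lie far apart, at 13.65 to 17.72 CPM in scl28-3 and 42.38 to 44.5 CPM in wild type.

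No relative passed the test for a rise. The limma fit called 0 of 9 higher, where 0% of all tested genes were called higher, and 0 of 9 lower. Their adjusted p-values ran from 0.994 to 1. edgeR's quasi-likelihood test and DESeq2 also called 0 of 9, with 1 and 0 at an unadjusted p under 0.05 in these tools. With limma, 1 relative (SCL8) was higher and 0 were lower at an unadjusted p under 0.05, against 2.2% of all tested genes higher and 2.16% lower. The estimates themselves leaned upward, with 8 of 9 log2 fold changes above 0 and a median of 0.17, against 52.1% above 0 and a median of 0.007 over all tested genes. In 3 of 9 relatives (HAM2, SCL8 and SCL14) every scl28-3 library lay above every wild type library, which was so in 6.19% of all tested genes, and in 1 (SCL21) every scl28-3 library lay below, as in 4.22% of all tested genes. These 9 genes were measured in the same 6 libraries and are not independent of each other. Taken gene by gene, the highest upper end of an interval among the 9, that of SCL8, was a 1.43-fold increase. The intervals are separate for each gene, so this end is not a bound for the 9 together. The SCL8 log2 fold change itself ran from 0.197 to 0.347 when single libraries were left out. The intervals describe bulk root tips, and a larger rise in only some of the cells was not tested.

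The HAM genes, which maintain shoot and root meristems and act with WUSCHEL-type homeodomain proteins, had the highest levels of the 10. HAM2 was at 67.08, 60.66 and 62.39 CPM in scl28-3 and at 58.5, 54.13 and 48.96 CPM in wild type. Its groups did not overlap, although the gap between the nearest libraries was small beside the spread within wild type. The log2 fold change was 0.22 ± 0.10 (SE; 95% interval -0.01 to 0.44), with a limma adjusted p = 0.994. HAM1, its nearest relative by sequence, was at 65.37, 60.45 and 57.98 CPM in scl28-3 and at 62.04, 48.94 and 50.72 CPM in wild type. Here the groups overlapped, because wild type library 1 was as high as the mutant libraries, and the log2 fold change was 0.17 ± 0.11 (SE; 95% interval -0.079 to 0.42). HAM3 was at 52.58, 51.23 and 61.08 CPM in scl28-3 and at 41.56, 52.21 and 46.86 CPM in wild type. Its groups overlapped through wild type library 2, and the log2 fold change was 0.21 ± 0.11 (SE; 95% interval -0.044 to 0.47). The 3 genes thus shared an upward estimate of 0.17 to 0.22 on the log2 scale, with no call in any of them. The estimates moved with single libraries, again with no call. HAM1 was at 0.271 without wild type library 1, which stood apart above, and at 0.114 to 0.12 without wild type library 2, wild type library 3 or scl28-3 library 1. HAM2 was at 0.273 without wild type library 1 and at 0.133 without wild type library 3. HAM3 was at 0.123 without wild type library 1, at 0.135 without scl28-3 library 3 and at 0.305 without wild type library 2. Of their partner genes WUS, WOX4 and WOX5, only WOX5, which marks the quiescent centre of the root, was analysed here. It was low, at 0.36, 1.13 and 0.77 CPM in scl28-3 and 0.6, 0.96 and 0.79 CPM in wild type, with overlapping groups and a log2 fold change of -0.084 ± 0.29 (SE; limma adjusted p = 0.998).

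PAT1, SCL13, SCL5 and SCL21 form the PAT1 branch, in which PAT1 and SCL21 act in phytochrome A signalling and SCL13 mainly in phytochrome B signalling. PAT1 was at 29.58, 26.11 and 30.57 CPM in scl28-3 and at 27.48, 24.9 and 29.04 CPM in wild type. SCL5 was at 21.5, 19.28 and 24.85 CPM in scl28-3 and at 23.5, 18.85 and 21.85 CPM in wild type. In both genes the groups were interleaved, with log2 fold changes of 0.063 ± 0.10 for PAT1 and 0.011 ± 0.12 for SCL5 (SE). SCL13 was at 18.5, 16.75 and 17.88 CPM in scl28-3 and at 14.52, 16.15 and 17.2 CPM in wild type. Its wild type library 3 lay within the mutant range, and its log2 fold change was 0.13 ± 0.11 (SE; 95% interval -0.11 to 0.37).

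SCL21 was the only relative with an estimate below 0. It was at 11.72, 9.99 and 11.44 CPM in scl28-3 and at 13.05, 11.83 and 12.99 CPM in wild type, and the groups touched closely without overlapping. The log2 fold change was -0.20 ± 0.11 (SE; 95% interval -0.46 to 0.05), with a limma adjusted p = 0.994. SCL21 shares 290 bases in all with the neighbouring genes AT2G04880 (ZAP1, a WRKY factor) and AT2G04900 on the opposite strand, and the sources used here do not say whether counting used the strand, so reads from those stretches are of uncertain origin. AT2G04880 was at 22.08, 20.2 and 23.48 CPM in scl28-3 and at 19.44, 18.46 and 21.85 CPM in wild type. AT2G04900 was at 42.58, 50.11 and 55.72 CPM in scl28-3 and at 40.27, 61.06 and 58.79 CPM in wild type. Both neighbours were more abundant than SCL21 in reads and overlapped between genotypes. The other 9 members overlap no annotated gene.

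Among the genes of phytochrome signalling that the PAT1 branch serves (PHYA, PHYB, PHYC, FHY1, FHL and HFR1), limma, edgeR's quasi-likelihood test and DESeq2 called 0 of 6, and 0 of 6 had an unadjusted p under 0.05 in any of the 3. PHYA, the far-red photoreceptor, was at 179.46, 162 and 171.14 CPM in scl28-3 and at 166.33, 145.28 and 134.51 CPM in wild type. PHYB, the main red light photoreceptor, was at 96.23, 84.24 and 87.3 CPM in scl28-3 and at 96.77, 71.25 and 77.74 CPM in wild type. Both overlapped between genotypes, with log2 fold changes of 0.19 ± 0.10 for PHYA and 0.11 ± 0.12 for PHYB (SE).

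SCL8 had the highest estimate of the 9 relatives. It was at 22.5, 25.83 and 28.13 CPM in scl28-3 and at 19.44, 20.38 and 22.46 CPM in wild type. The lowest mutant library was level with the highest wild type library (22.5 against 22.46 CPM), so the absence of overlap rests on a difference far smaller than the spread within either genotype. The log2 fold change was 0.27 ± 0.11 (SE; 95% interval 0.02 to 0.52), with a limma adjusted p = 0.994. It is the relative counted above at an unadjusted p under 0.05. Without wild type library 1 the log2 fold change was 0.22.

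SCL14 acts with class II TGA factors to switch on genes that detoxify foreign chemicals. It was at 36.65, 34.27 and 38.85 CPM in scl28-3 and at 31.62, 30.58 and 32.55 CPM in wild type. Every mutant library was above every wild type library, and the wild type values were tight. The log2 fold change was 0.19 ± 0.089 (SE; 95% interval -0.01 to 0.39), with a limma adjusted p = 0.994. Of the 7 TGA and detoxification genes linked to SCL14, 0 were called and 0 had an unadjusted p under 0.05 with limma, edgeR's quasi-likelihood test or DESeq2. TGA2, a DNA-binding partner of SCL14, was at 22.15, 23.58 and 22.29 CPM in scl28-3 and at 20.05, 20 and 19.04 CPM in wild type, without overlap and with a log2 fold change of 0.18 ± 0.097 (SE; limma adjusted p = 0.994). It was 1 of 7 genes of the list higher in scl28-3 without overlap, against 6.19% of all tested genes. GSTU25, a glutathione transferase, was at 596.4, 538.44 and 413.44 CPM in scl28-3 and at 641.48, 437.97 and 489.97 CPM in wild type. CYP81D11, a cytochrome P450 inducible by foreign chemicals, was at 342.57, 248.14 and 270.36 CPM in scl28-3 and at 296.98, 247.88 and 254.99 CPM in wild type. These last genes, the most abundant of the list, overlapped broadly between genotypes.

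**Figure D2:**
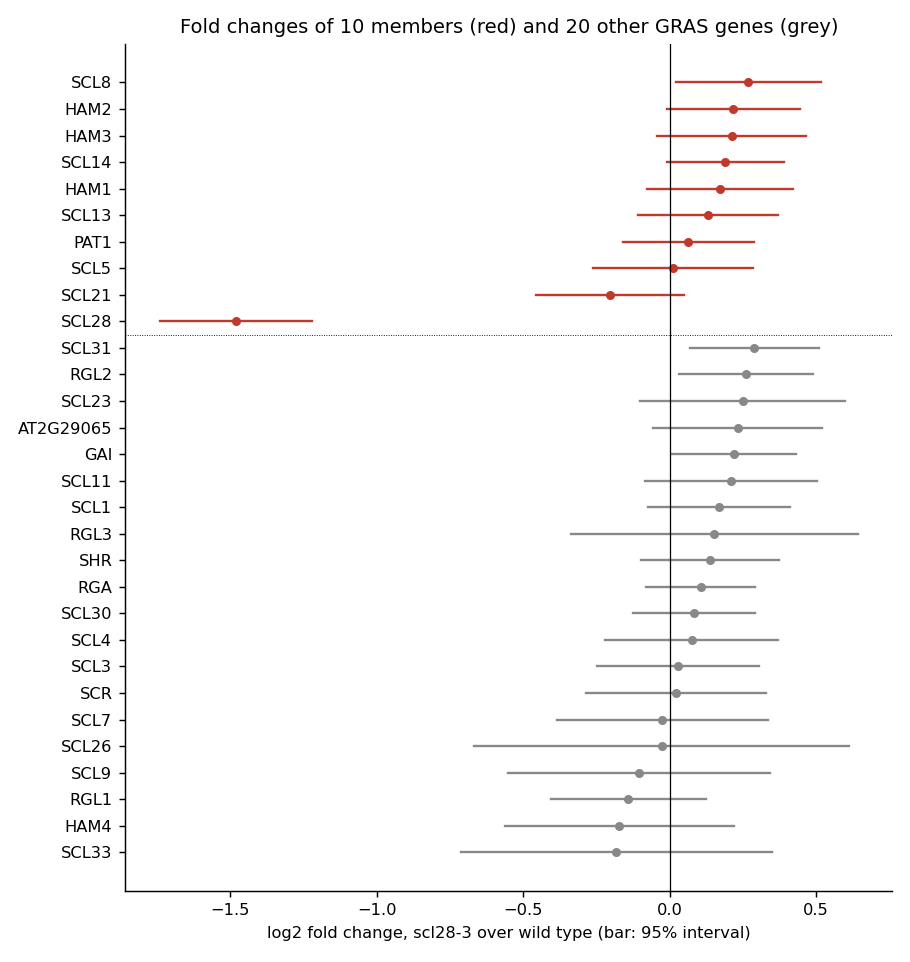
Log2 fold change of scl28-3 over wild type on the log2(CPM + 0.5) scale (horizontal axis) for the 10 members (red, upper block) and 20 other GRAS genes (grey, lower block); points are limma estimates and bars 95% intervals. SCL28 at -1.48 lies away from the rest, which run from -0.20 to 0.27 among the members and from -0.18 to 0.29 among the other GRAS genes.

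To compare levels between genes, CPM was divided by transcript length in kilobases. In wild type HAM2 (22.2 ± 1.97), HAM1 (20.8 ± 2.74) and HAM3 (19.9 ± 2.26 CPM per kb; SD, n = 3) stood highest, and their libraries overlapped, so their order among themselves is not resolved. SCL28 took place 4, at 14.1 ± 0.381 CPM per kb, below every HAM library and above every PAT1 library. PAT1 followed at 12.7 ± 0.979 and SCL14 at 11.2 ± 0.349 CPM per kb, each separated from its neighbours. SCL5 (9.59 ± 1.06) and SCL8 (8.93 ± 0.664 CPM per kb) overlapped, as did SCL21 (6.78 ± 0.369) and SCL13 (6.5 ± 0.551 CPM per kb), which were lowest. In scl28-3, SCL28 was at 5.03 ± 0.679 CPM per kb, place 10 of 10, overlapping only with SCL21 at 5.93 ± 0.498 among its neighbours. The HAM genes again came first there, at 26.1 ± 1.37 (HAM2), 23.7 ± 1.45 (HAM1) and 23.3 ± 2.27 CPM per kb (HAM3). PAT1 (13.5 ± 1.1) and SCL14 (12.9 ± 0.811 CPM per kb) overlapped in scl28-3, and so did SCL8 (11.0 ± 1.22) and SCL5 (9.81 ± 1.26 CPM per kb), with SCL13 at 7.22 ± 0.362 CPM per kb.

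**Figure D3:**
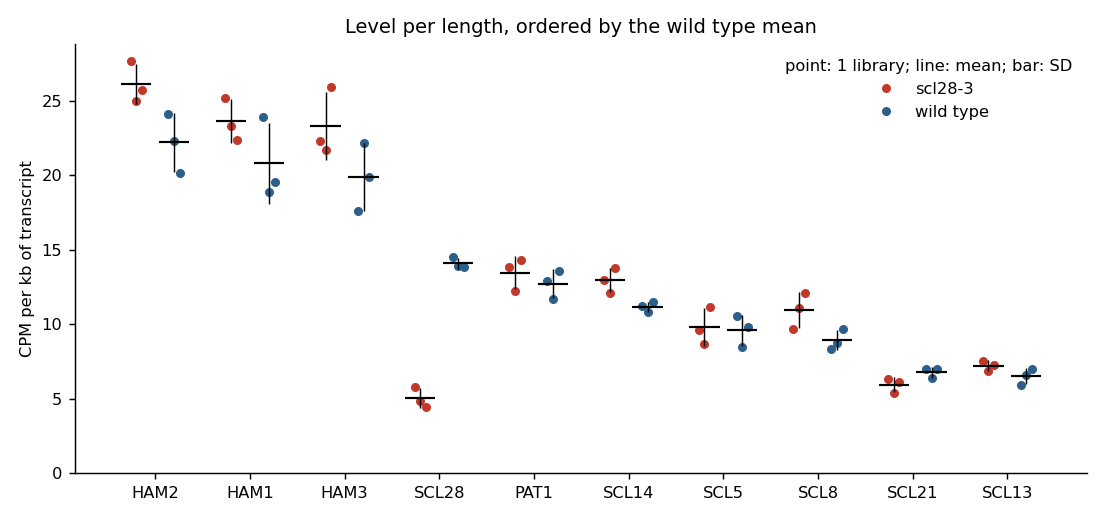
CPM per kilobase of transcript for each member in every library, scl28-3 (red) left of wild type (blue), ordered by the wild type mean; points are libraries, horizontal lines means and vertical bars SD (n = 3 each). SCL28 holds place 4 in wild type at 14.1 and is last in scl28-3 at 5.03 CPM per kb.

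Summed as CPM, without regard to length, the 9 relatives held 325.5, 304.6 and 333.2 CPM in scl28-3 and 291.7, 278 and 282.6 CPM in wild type. All mutant sums were above all wild type sums, by 37.0 CPM in the mean (321.1 ± 14.8 against 284.1 ± 6.99 CPM; SD, n = 3 each), while SCL28 itself was lower by 27.7 CPM in the mean. The difference of the sums ranged from 30.9 to 45.2 CPM when a library was left out, and was 33.0 CPM after division by TMM factors. HAM1, HAM2 and HAM3 made up most of that difference (179.6 ± 6.54 CPM in scl28-3, 154.6 ± 7.8 CPM in wild type), and the 4 genes of the PAT1 branch 2.3 CPM of it. With SCL28 included, the 10 members together were at 343.2, 319.5 and 346.8 CPM in scl28-3 and at 336.2, 320.6 and 325.0 CPM in wild type, which overlap. SCL28 gave 5.16, 4.67 and 3.94% of the summed reads of the 10 members in scl28-3 and 13.24, 13.29 and 13.04% in wild type. A list of 21 other GRAS genes, described below, also summed higher in every scl28-3 library, at 447.65 to 471.0 CPM in scl28-3 and 406.91 to 429.12 CPM in wild type. The SMOS1 homologue and 4 MYB3R genes summed to 115.13 to 124.96 CPM in scl28-3 and 111.44 to 114.48 CPM in wild type, again without overlap. Sums of the 6 phytochrome signalling genes overlapped, at 290.86 to 326.13 CPM in scl28-3 and 256.21 to 310.1 CPM in wild type. So did those of the 7 TGA and detoxification genes, at 934.79 to 1200.37 CPM in scl28-3 and 921.99 to 1183.68 CPM in wild type. These sums are a description of genes chosen together and carry no test. How often sums of other genes separate the genotypes in this way was not tested.

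**Figure D4:**
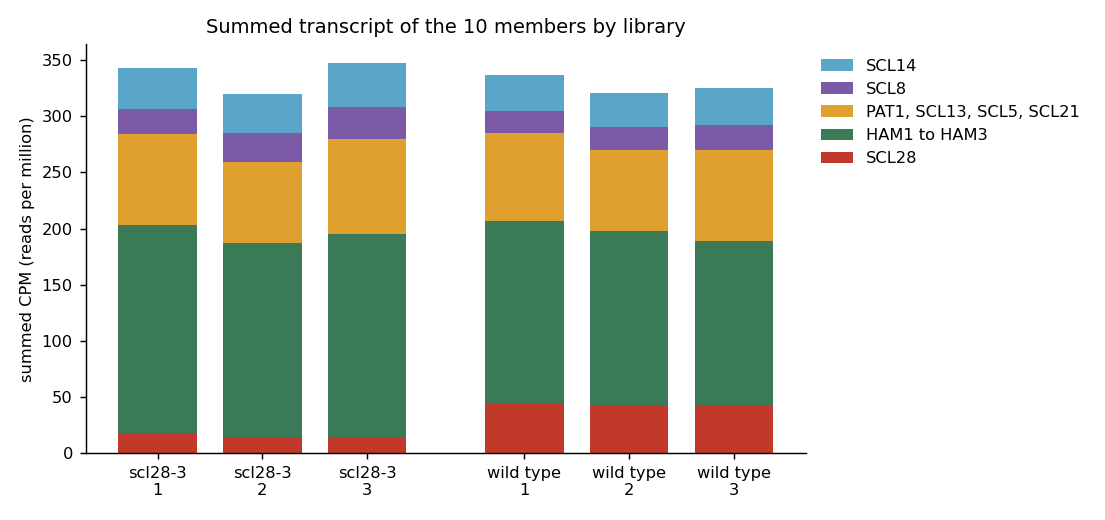
Summed CPM of the 10 members in each library, scl28-3 left and wild type right, stacked by SCL28, the HAM genes, the PAT1 branch, SCL8 and SCL14. The SCL28 layer shrinks to 13.65 to 17.72 CPM in scl28-3, against 42.38 to 44.5 CPM in wild type, while the totals overlap at 319.5 to 346.8 CPM in scl28-3 and 320.6 to 336.2 CPM in wild type.

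Other GRAS genes were read the same way from a list of 24, which leaves out AT5G19970, a gene that RefSeq also gives a GRAS product name. Of these 21 were listed and 20 passed the filter on low values. Limma called 0 of 20 in either direction, and so did edgeR's quasi-likelihood test and DESeq2. At an unadjusted p under 0.05 there were 3 with limma, 3 with edgeR and 1 with DESeq2. The 3 with limma were all higher, against 2.2% of all tested genes higher and 2.16% lower. Of the 20 estimates 14 were above 0, with a median of 0.094 on the log2 scale, against 52.1% above 0 and a median of 0.007 over all tested genes. SCL31 was highest, at 31.29, 28.01 and 32.24 CPM in scl28-3 and 24.8, 22.69 and 26.24 CPM in wild type, with a log2 fold change of 0.29 ± 0.098 (SE; limma adjusted p = 0.994). SCL31 shares 2852 bases, its whole annotated span, with AT1G07510 on the opposite strand, so the origin of its reads is uncertain. The same limit holds for SCL11 (1656 bases), SCL30 (203), SCL1 (52) and SCL9 (23). The mutant libraries of SCL31 all lay above its wild type libraries. This was so in 4 of the 20 genes, against 6.19% of all tested genes. In 1 of the 20 all mutant libraries lay below, against 4.22% of all tested genes.

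The DELLA genes repress gibberellin responses. RGL2 was at 23.36, 20.76 and 24.31 CPM in scl28-3 and 18.06, 17.98 and 20.09 CPM in wild type (log2 fold change 0.26 ± 0.10, SE; limma adjusted p = 0.994). GAI was at 31.29, 32.79 and 35.58 CPM in scl28-3 and 29.55, 26.83 and 27.9 CPM in wild type (0.22 ± 0.094, SE; limma adjusted p = 0.994). Neither overlapped between genotypes, while RGL1 lay the other way without overlap (6.79, 7.18 and 7.27 CPM in scl28-3, 7.6, 7.69 and 7.98 CPM in wild type), and RGA and RGL3 overlapped. RGA had the highest level per length of all GRAS genes analysed, at 36.1 ± 0.694 CPM per kb in scl28-3 and 33.2 ± 2.32 CPM per kb in wild type.

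Of the ground tissue regulators, SHR was at 45.94, 43.35 and 41.24 CPM in scl28-3 and 40.7, 41.15 and 35.27 CPM in wild type, barely without overlap (log2 fold change 0.14 ± 0.11, SE). SCR was at 64.23, 66.5 and 66.8 CPM in scl28-3 and 78.37, 63.27 and 53 CPM in wild type, with all mutant values inside the wild type range. The remaining tested genes (HAM4, SCL1, SCL3, SCL4, SCL7, SCL9, SCL11, SCL23, SCL26, SCL30, SCL33 and AT2G29065) had overlapping groups. SCL23 was the closest match to SCL28 among the GRAS genes compared, with identity counted over the shorter protein. It had a log2 fold change of 0.25 ± 0.16 (SE), at 5.64, 7.6 and 7.63 CPM in scl28-3 and 5.1, 5.67 and 6.23 CPM in wild type. SCL33, the closest relative of SCL14 by sequence at 73.1%, was at only 1.14, 0.91 and 1.37 CPM in scl28-3 and 0.95, 1.63 and 1.49 CPM in wild type. LAS did not pass the filter, at 0.14 to 0.36 CPM in scl28-3 and 0.09 to 0.44 CPM in wild type, and the expression of SCL29, SCL32 and AT5G67411 was not analysed here.

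The partner of SCL28 and the MYB3R factors above it were also read. Of 5 genes, 0 were called and 0 had an unadjusted p under 0.05 with limma, edgeR's quasi-likelihood test or DESeq2, and 5 of 5 estimates were above 0, with a median of 0.087 on the log2 scale, against 52.1% above 0 and a median of 0.007 over all tested genes. The SMOS1 homologue (AT2G41710) was at 16, 15.62 and 16.98 CPM in scl28-3 and 12.44, 16.06 and 16.67 CPM in wild type, where library 1 was low and the others matched the mutant. It shares 1590 bases, summed over both, with AT2G41705 and AT2G09305 on the opposite strand. MYB3R1 shares 214 bases with AT4G32750 in the same way. Reads from those stretches are of uncertain origin. MYB3R1, an activator of genes of the G2 and M phases with repressor roles too, was at 63.16, 62.07 and 64.18 CPM in scl28-3 and 57.11, 59.13 and 59.67 CPM in wild type, a narrow separation with a log2 fold change of 0.087 ± 0.08 (SE; limma adjusted p = 0.994). It was 1 of the 5 genes higher in scl28-3 without overlap, against 6.19% of all tested genes. MYB3R4, an activator, was at 26.58, 19.49 and 22.82 CPM in scl28-3 and 29.03, 19.81 and 17.64 CPM in wild type.

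The genes whose pattern was most like that of SCL28 were sought among 14035 tested genes with a mean of at least 5 CPM, by the root mean square difference of log2(CPM + 0.5), centred on each gene's mean, over the 6 libraries. Because that pattern is dominated by the difference between genotypes, likeness here is a description. The nearest was AT3G62760 (GSTF13, a glutathione transferase of the phi class), with a difference of 0.168, at 5.5, 5.35 and 4.89 CPM in scl28-3 and 19.44, 19.52 and 15.18 CPM in wild type. AT3G16150 (ASPGB1, an asparaginase) followed at 0.262, with 7.43, 10.35 and 8.58 CPM in scl28-3 and 23.16, 20.29 and 18.43 CPM in wild type. AT5G28300 (a trihelix factor) came next at 0.32, with 3.5, 4.15 and 3.93 CPM in scl28-3 and 11.32, 6.54 and 8.86 CPM in wild type. All 3 were low in every mutant library, like SCL28, which follows from choosing them by likeness to it. AT1G26770 (EXPA10, an expansin that loosens cell walls) differed by 0.338 and AT5G13870 (XTH5, a xyloglucan-remodelling enzyme) by 0.39. XTH5 was at 48.3, 55.67 and 48.51 CPM in scl28-3 and 85.11, 83.46 and 85.55 CPM in wild type. Limma adjusted p was 0.0022 for GSTF13 and 0.0245 for both ASPGB1 and XTH5. AT5G28300 (limma adjusted p = 0.204) and EXPA10 (limma adjusted p = 0.301) were not called. Choosing genes by likeness to SCL28 in the same libraries favours such calls, so they are no separate evidence. Over all tested genes 0.0727% were called lower. None of the 5 nearest is a GRAS gene. That follows from the fold changes above, since SCL28 was at -1.48 and the other tested GRAS genes ran from -0.20 to 0.29. The set depends on single libraries: leaving out wild type library 1 kept 2 of the 5 among the nearest 5, leaving out wild type library 3 kept 3, and leaving out any other library kept 4, and 1 stayed with a minimum mean of 1 CPM.

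**Figure D5:**
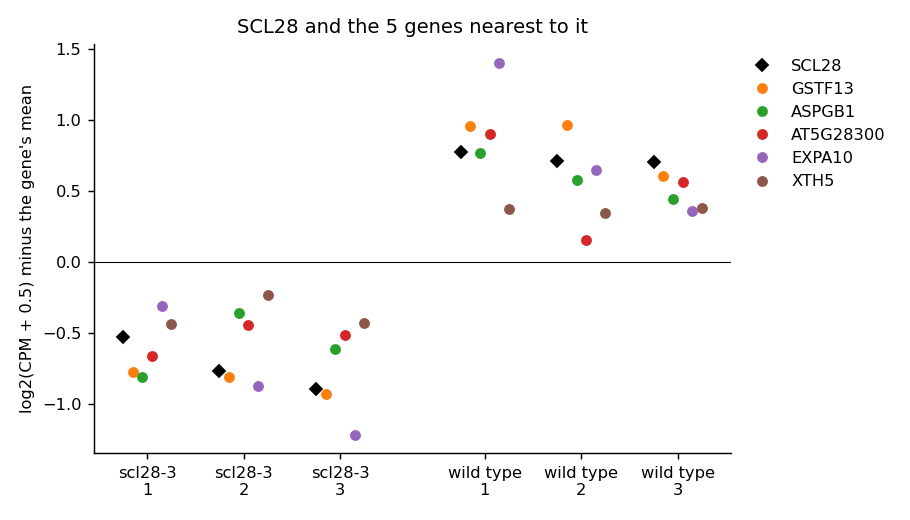
Log2(CPM + 0.5) minus each gene's mean (vertical axis) in the 3 scl28-3 libraries (left) and the 3 wild type libraries (right) for SCL28 (black diamonds) and the 5 genes nearest to it (circles). Each of the 6 genes is below its mean in the mutant libraries and above it in the wild type libraries.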

How the data were processed

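RNA was sequenced from root tips of scl28-3 and wild type plants (n = 3 each). The authors deposited CPM per gene, counts scaled to the library total, per the file headers. The submitters' processing notes name TAIR10 as the genome and HISAT2 2.0.0, HTSeq 0.6.1p1 and edgeR as tools. The edgeR version, annotation release and strand setting are not given in the sources used here. Every value was a whole multiple of the worth of 1 read (100% within 0.1 read), so reads were recovered, with totals of 10399899 to 16780424. Every pair of libraries differed by more than sampling noise (chi-square per degree of freedom of 4.0 to 19.01).

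The main test was limma 3.58.1 with a trend (R 4.3.3), two-sided, on log2(CPM + 0.5) after division by TMM factors from edgeR 4.0.16. Genes were kept by filterByExpr with a minimum count of 10 on recovered reads, which left 17879, and p-values were adjusted over all of them by the Benjamini-Hochberg method. Fold changes on this scale understate the change of low genes. Printed CPM are as deposited, and errors are SD for CPM and SE for log2 fold changes. The steps were tested on simulated data. edgeR's quasi-likelihood test and DESeq2 1.42.0 on recovered reads, other pseudocounts, scaling, filters, a replicate block and leaving out each library were alternatives.

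Sequences, lengths and coordinates were read from TAIR10.1 with the RefSeq annotation. The files carry gene IDs and no coordinates. That annotation gives the symbol SCL28 to another gene, a splicing factor, so SCL28 is AT1G63100 throughout. Proteins were aligned globally with biopython 1.88 (BLOSUM62), and identity is the percentage of the shorter protein.

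The members and lists were chosen with earlier results of these data known. The text names the 10 members, the other GRAS genes, the called genes of each other list or else at most the 2 with the highest CPM, and the 5 genes nearest to SCL28. The SMOS1 homologue and TGA2 were named outside the rule after their values were seen. So were the genes beside SCL21 and the microRNA locus.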

Additional observations from a re-analysis of the deposited data

How the results depend on the processing

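SCL28 was lower in scl28-3 and called under all 14 alternatives, with log2 fold changes from -1.59 to -1.40 and a highest adjusted p of 0.0329 (without wild type library 2). The 9 relatives and the 20 other GRAS genes had 0 calls under each of those alternatives. Among the 9 relatives the direction turned for SCL5 only, to -0.081 when scl28-3 library 3 was left out and -0.061 when wild type library 2 was, within a range of -0.081 to 0.091, so that 7 or 8 relatives were above 0. The count of all genes called lower (13) ran from 5 to 18 on leaving out single libraries. It was 18 in the absence of wild type library 1 and 5 or 6 otherwise. A replicate block on the sample numbers gave 40 genes lower and 24 higher, and SCL28 was the only listed gene among them. The numbers do not pair the samples by the labels, and correlations of same-numbered libraries' deviations were 0.44, 0.04 and 0.5. Wild type library 2 was near 0 with every scl28-3 library, at -0.1, 0.04 and 0.06 for libraries 1, 2 and 3. The correlation was -0.46 for scl28-3 library 1 with wild type library 3. It was -0.45 for scl28-3 library 3 with wild type library 1. The cause of these shifts was not tested. SCL28 kept place 4 in wild type and 10 in scl28-3 with coding length, TMM-scaled CPM and each library left out. Coding length raised all 20 levels per kilobase by more than the spread between replicates. The sums of the relatives, the medians of the lists and the likeness to SCL28 were checked by alternatives chosen after seeing the data. The values of WOX5, SCL33 and LAS are limited by depth.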
